A study of Arabidopsis thaliana with 38 samples.

Results

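The 10 genes described here make or answer the plant hormone jasmonate in Arabidopsis thaliana. They were chosen by name, by gene identifier, out of 27416 genes in the deposited count tables. Enzymes of jasmonate synthesis are represented by LOX2 (AT3G45140), AOS (AT5G42650), AOC1 (AT3G25760), AOC2 (AT3G25770) and OPR3 (AT2G06050). JAR1 (AT2G46370) conjugates the hormone, and the genes known for their rise after jasmonate treatment or wounding are VSP1 (AT5G24780), VSP2 (AT5G24770), CORI3 (AT4G23600) and TAT3 (AT2G24850). All 10 passed the filter on low counts in every comparison.

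Jasmonate is made from the fatty acid linolenate, first in the chloroplast by a lipoxygenase, allene oxide synthase and allene oxide cyclase, then in the peroxisome by OPR3 and rounds of beta-oxidation. JAR1 joins the product to isoleucine, and this conjugate is bound by the F-box receptor COI1, which then marks the JAZ repressor proteins for degradation and so frees transcription factors such as MYC2. In leaves the hormone is known for responses to wounding and chewing insects, and many of its own synthesis and response genes are among those that it induces.

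The RNA came from 4 genotypes with 2 libraries each. H3.1S28A was set against H3.1, and H3.3S28A against H3.3. Histone H3.1 is the form of H3 laid down with DNA replication, H3.3 is the form deposited outside it, and in S28A the serine at position 28 is replaced by alanine. The labels do not say how the genotypes were made, whether each is 1 line, or how much unmutated histone H3 the S28A plants still have, and none of these 8 libraries carries the label Col, which the series uses for other samples. They give the source as seedlings 2 weeks old, grown in soil under long or short days with no treatment named, while their extraction text speaks of closed flower buds. Nothing in them says whether the 2 libraries of a genotype were grown or extracted apart, and p-values here rest on the spread between those 2, which may be technical.

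Total counts ran from 12865999 to 24449528 per library, and no count at all still allowed for 0.123 to 0.233 CPM, depending on the library (3 counts over the library total, counting error only). CPM of single genes are scaled by TMM over the 8 libraries, and marker sums by library totals. The tissue check gave a summed level of 66409 to 76853 CPM for 6 leaf markers, all of them detected in every library. The summed level of 8 anther and pollen markers, 1 of them at 0 throughout, ran from 0.291 to 1.96 CPM. The 7 flower organ markers summed to 66.1 and 10.6 CPM in H3.1S28A, against 2.81 and 2.69 CPM in H3.1, and to 186 and 177 CPM in H3.3S28A, against 0.662 and 0.846 CPM in H3.3. Senescence markers, 5 genes, summed to 50.3 and 33.9 CPM in H3.1S28A, against 16.2 and 16.0 CPM in H3.1, and to 92.4 and 73.2 CPM in H3.3S28A, against 41.8 and 34.5 CPM in H3.3. The 8 root markers, 2 of them at 0 throughout, summed to 45.3 and 42.2 CPM in H3.1S28A, against 58.4 and 65.1 CPM in H3.1, and to 34.4 and 31.1 CPM in H3.3S28A, against 65.7 and 63.3 CPM in H3.3. The part of these marker genes in the jasmonate results was not tested.

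The H3.1 library of replicate 2 stood apart in the jasmonate genes. All 10 members were higher in it than in H3.1 replicate 1, and 9 of the 10 were at least 1.5-fold higher, whereas 2.84% of all 18974 genes tested in that pair were. The library and the direction were picked from the members' own values, so this share describes the pattern and does not test it. The ratio of replicate 2 to replicate 1 had a median of 2.43 over the members and ran from 1.12 for JAR1 to 11.5 for TAT3. Calls in the H3.1 pair that changed when that library was left out are given with both values. H3.3S28A replicate 2 differed from the rest in another way, with 0.858% of its counts on chloroplast genes beside 0.0520% to 0.143% in the other 7 libraries, and the counts of the H3.3S28A libraries differed by a chi-square of 18.6 per degree of freedom, against 4.11 to 8.27 in the other genotypes. The 7 members called in the H3.3 pair were also called without it, in the same directions.

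**Figure D1:**
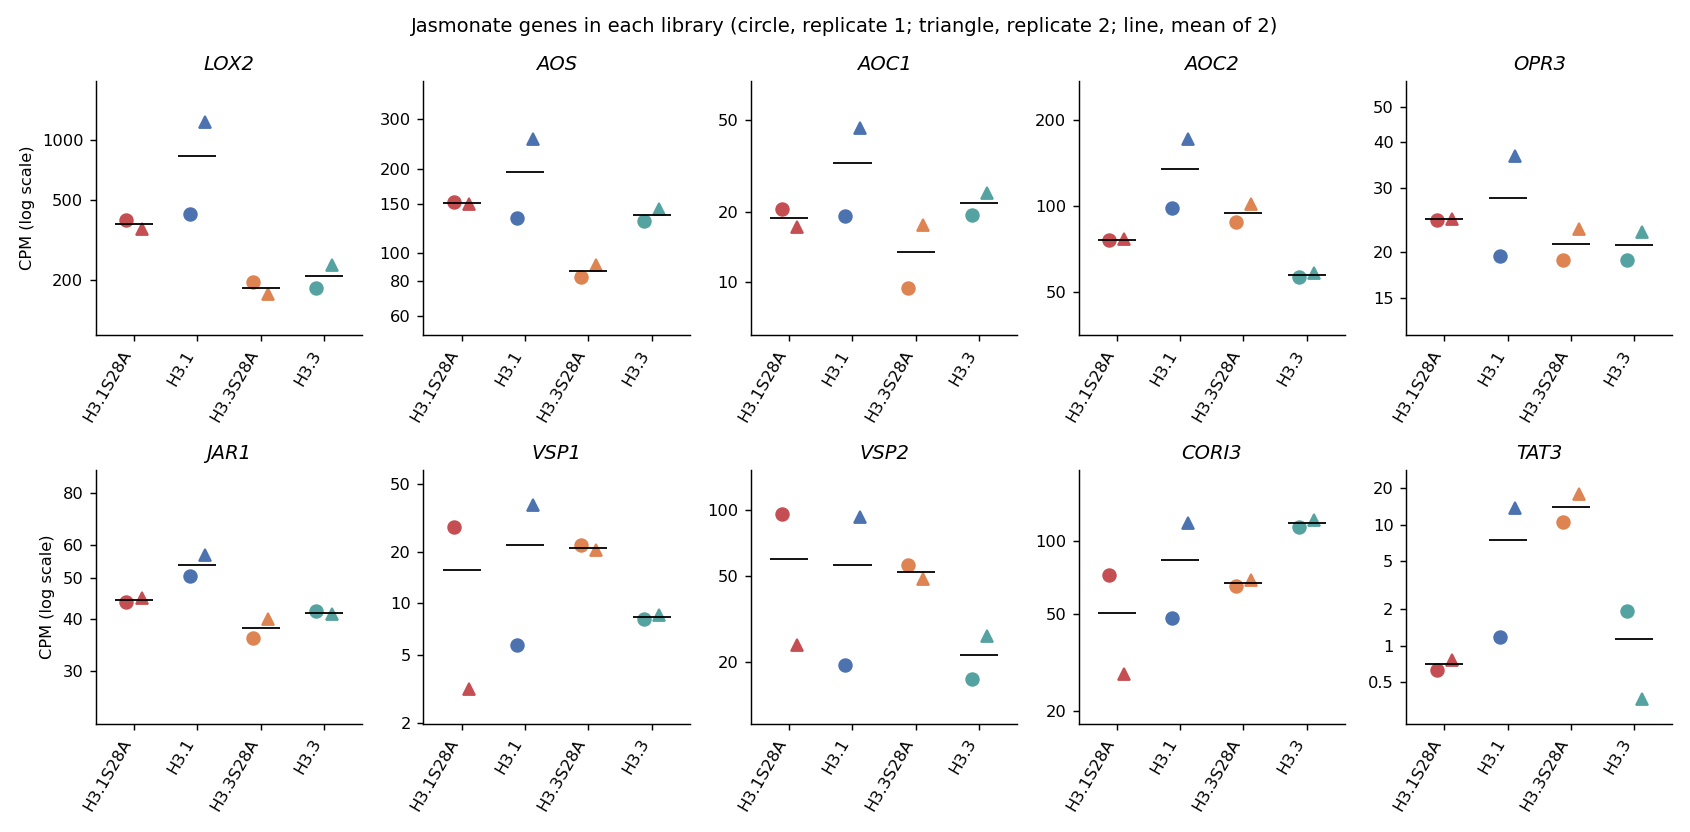
Level of each of the 10 genes in each of the 8 libraries, in TMM-scaled CPM on a log axis, with circles for replicate 1, triangles for replicate 2 and a line at the mean of 2. The H3.1 triangle lies above the H3.1 circle in all 10 panels, and in the panels of VSP1, VSP2 and CORI3 the H3.1S28A circle lies far above the H3.1S28A triangle.

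In the H3.1 pair, 3 of the 10 genes were lower in H3.1S28A than in H3.1 (LOX2, AOC2 and TAT3), none was higher, and 7 did not pass the test. Across all genes tested, edgeR called 13.5% in either direction, 8.23% higher and 5.26% lower. The median log2 fold change of the 10 members was -0.65, beside -0.01 for all 18974 genes, and 5 members had an unadjusted p under 0.05. DESeq2 called none of the 10, with log2 fold changes of -1.13 for LOX2, -0.81 for AOC2 and -3.40 for TAT3, and edgeR without H3.1 replicate 2 also called none. Without H3.1 replicate 1, 7 members were called lower, beside 450 of 19341 genes (2.33%). Without H3.1S28A replicate 1, the log2 fold changes were -2.79 for VSP1, -1.22 for VSP2 and -1.55 for CORI3. Without H3.1S28A replicate 2, they were 0.37, 0.77 and -0.20. Fits without an H3.1S28A library took little account of the spread between the H3.1 libraries. Between H3.3S28A and H3.3, 4 of the 10 were higher in the mutant (AOC2, VSP1, VSP2 and TAT3), 3 were lower (AOS, AOC1 and CORI3) and 3 did not pass the test. Of all 19729 genes tested there 58.4% were called, with 28.8% higher and 29.7% lower, and the members' median log2 fold change was -0.01, beside 0.01 for all genes. By the simpler measure of libraries that do not overlap, LOX2, AOC2, JAR1 and TAT3 were lower in both H3.1S28A libraries than in either H3.1 library, where 29.1% of all genes were lower, 28.8% higher and 57.9% either. For H3.3S28A, AOC2, VSP1, VSP2 and TAT3 did not overlap H3.3 and were higher, and AOS, AOC1, JAR1 and CORI3 did not overlap and were lower, beside 37.3% of all genes higher, 42.2% lower and 79.5% either. These are bulk samples, so fewer cells of a type and less RNA per cell cannot be told apart.

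**Figure D2:**
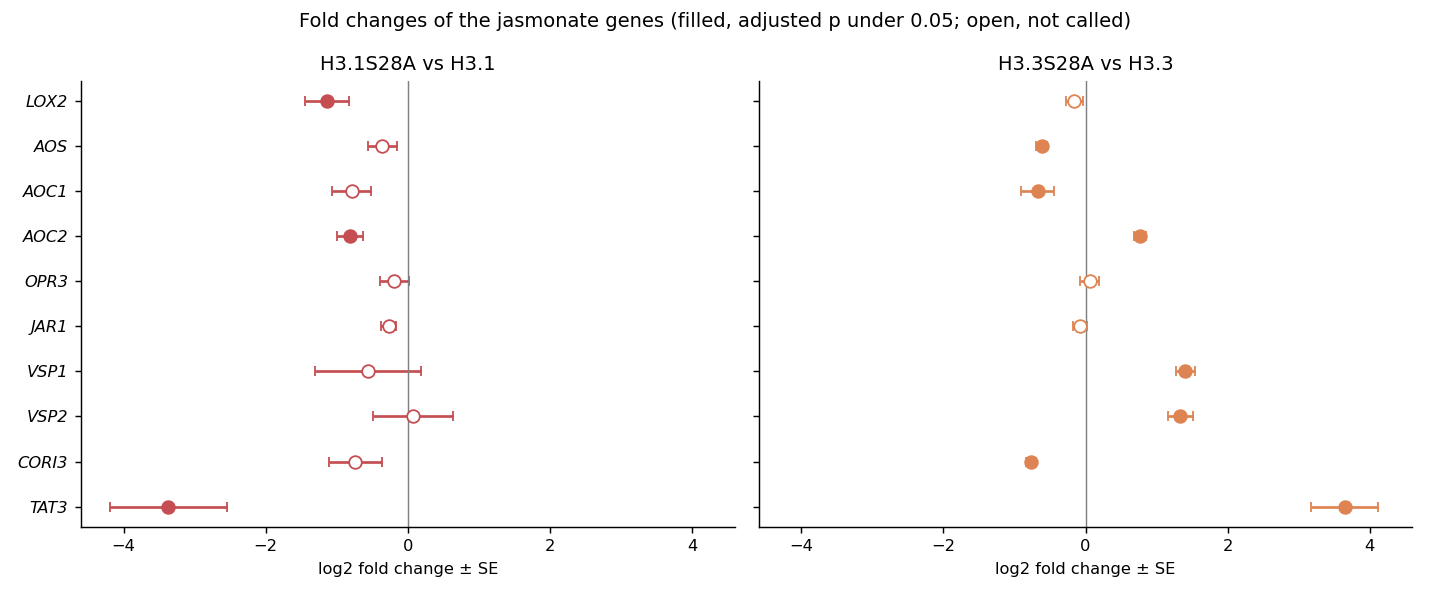
Log2 fold change ± SE of each of the 10 genes, S28A over the unmutated form of the same histone, with filled points for an adjusted p under 0.05 (edgeR). In the left panel 9 of 10 points lie at or below 0 and LOX2, AOC2 and TAT3 are filled; in the right panel AOC2, VSP1, VSP2 and TAT3 are filled to the right of 0 and AOS, AOC1 and CORI3 to the left.

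LOX2 encodes the chloroplast 13-lipoxygenase that starts the pathway and supplies much of the jasmonate made in wounded leaves. It had 397 and 360 CPM in H3.1S28A libraries, against 429 and 1238 CPM in H3.1 libraries. The mutant libraries lay close together and below both H3.1 libraries, which differed 2.89-fold from each other. The log2 fold change was -1.13 (SE 0.31, Benjamini-Hochberg adjusted p = 0.0288 by edgeR's quasi-likelihood test). Without H3.1 replicate 2 it was -0.18, and without H3.1 replicate 1 it was -1.70. With a trend on gene span removed from the counts it was -1.06 (edgeR adjusted p = 0.0716). In the other pair LOX2 had 194 and 169 CPM in H3.3S28A libraries, against 181 and 238 CPM in H3.3 libraries, so the groups overlapped. The log2 fold change was -0.16 (SE 0.12, edgeR adjusted p = 0.27). Its sign in this pair was not fixed: LOX2 was called lower without H3.3S28A replicate 1 (-0.26, edgeR adjusted p = 0.00392) and without H3.3 replicate 1 (-0.38, edgeR adjusted p = 0.0124), stood at 0.03 without H3.3 replicate 2, and was called higher with the gene-span trend removed (0.39, edgeR adjusted p = 0.0115).

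AOS, the only allene oxide synthase gene of Arabidopsis, makes the unstable epoxide that follows the lipoxygenase step. AOS had 152 and 149 CPM in H3.1S28A libraries, against 133 and 255 CPM in H3.1 libraries. The H3.1S28A values fell between the H3.1 values, and the log2 fold change was -0.36 (SE 0.21, edgeR adjusted p = 0.271), turning to 0.18 without H3.1 replicate 2 and called at -0.75 without H3.1 replicate 1. Between H3.3S28A and H3.3 the gene was better separated. It had 82.2 and 90.8 CPM in H3.3S28A libraries, against 131 and 143 CPM in H3.3 libraries. The groups did not overlap, and AOS fell by 0.61 on the log2 scale (SE 0.08, edgeR adjusted p = 5.78e-05).

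AOC1 and AOC2 encode allene oxide cyclases, which form the ring of the jasmonate precursor, and they lie next to each other with AOC3 in a row. AOC2 had 76.0 and 76.6 CPM in H3.1S28A libraries, against 98.2 and 171 CPM in H3.1 libraries. Both mutant libraries were below both H3.1 libraries, and the log2 fold change was -0.82 (SE 0.19, edgeR adjusted p = 0.0118). Without H3.1 replicate 2 it was -0.37, and without H3.1 replicate 1 it was -1.16. In H3.3S28A libraries AOC2 had 87.8 and 102 CPM, against 56.7 and 58.2 CPM in H3.3 libraries. There the mutant libraries were the higher ones, with no overlap, and AOC2 rose by 0.77 on the log2 scale (SE 0.09, edgeR adjusted p = 2.47e-05). With the gene-span trend removed the rise was 0.34 (edgeR adjusted p = 0.00502).

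AOC1 had 20.5 and 17.3 CPM in H3.1S28A libraries, against 19.2 and 46.0 CPM in H3.1 libraries. These values overlapped, and the log2 fold change was -0.79 (SE 0.28, edgeR adjusted p = 0.0764). Without H3.1 replicate 2 it was -0.03, and leaving out any of the other 3 libraries gave a call, at -0.66 to -1.29. In H3.3S28A libraries AOC1 had 9.41 and 17.5 CPM, against 19.4 and 24.3 CPM in H3.3 libraries. The values did not overlap and AOC1 fell by 0.68 on the log2 scale (SE 0.23, edgeR adjusted p = 0.0269). This call ended without H3.3S28A replicate 1 (-0.27, edgeR adjusted p = 0.141) and without H3.3 replicate 2 (-0.51, edgeR adjusted p = 0.209), and with upper-quartile scaling (-0.56, edgeR adjusted p = 0.0606). It was also not made with all 8 libraries in 1 fit (-0.71, edgeR adjusted p = 0.102) or by DESeq2 (adjusted p = 0.245).

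The neighbouring cyclase genes thus went opposite ways in the H3.3 pair, and because their coding sequences are alike, the way in which reads were divided between them is uncertain. AOC2 took 90.3% (95% Wilson interval 88.9 to 91.6) and 85.3% (83.4 to 87.0) of the counts on AOC1 and AOC2 in H3.3S28A, against 74.5% (72.2 to 76.7) and 70.6% (68.3 to 72.8) in H3.3. These intervals cover counting error within a library only, not the spread between libraries, and those of the H3.3S28A libraries do not overlap each other. In the H3.1 pair the share was 78.7% and 81.6% in H3.1S28A, against 83.7% and 78.8% in H3.1, and the groups overlapped. Summing AOC1 to AOC4 removes the division between copies. The sum was 154 and 179 CPM in H3.3S28A libraries, against 109 and 110 CPM in H3.3 libraries, and rose by 0.65 on the log2 scale (edgeR adjusted p = 3.83e-05). AOC4, which is not one of the neighbouring genes, had 55.6 and 56.9 CPM in H3.3S28A, against 31.8 and 26.1 CPM in H3.3. Its own rise of 1.01 on the log2 scale is part of the rise of the sum, and AOC1 and AOC2 were not summed alone. In the H3.1 pair the sum was 130 and 124 CPM in H3.1S28A libraries, against 153 and 256 CPM in H3.1 libraries. There it fell by 0.69 (edgeR adjusted p = 0.0199), but the log2 fold change of the sum was -0.28 without H3.1 replicate 2 and -1.01 without H3.1 replicate 1.

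OPR3, the peroxisomal reductase of 12-oxophytodienoate, had 24.5 and 24.7 CPM in H3.1S28A libraries, against 19.6 and 36.8 CPM in H3.1 libraries. It had 19.0 and 23.2 CPM in H3.3S28A libraries, against 19.0 and 22.8 CPM in H3.3 libraries. In both pairs the groups overlapped. The log2 fold changes were -0.19 (SE 0.21, edgeR adjusted p = 0.589) in the H3.1 pair and 0.06 (SE 0.14, edgeR adjusted p = 0.751) in the H3.3 pair, and the first turned to 0.33 without H3.1 replicate 2 and was called at -0.57 without H3.1 replicate 1.

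JAR1, which makes the active jasmonoyl-isoleucine conjugate, was the steadiest of the 10 genes, with a 1.58-fold span between its lowest and highest library. The same span had a median of 2.32 over 20052 genes and reached 49.1 for TAT3. JAR1 had 43.9 and 44.8 CPM in H3.1S28A libraries, against 50.6 and 56.9 CPM in H3.1 libraries. It had 35.9 and 40.1 CPM in H3.3S28A libraries, against 41.7 and 41.1 CPM in H3.3 libraries. Although the mutant libraries were the lower ones in both pairs, neither log2 fold change passed the test, at -0.27 (SE 0.11, edgeR adjusted p = 0.113) in the H3.1 pair and -0.08 (SE 0.10, edgeR adjusted p = 0.54) in the H3.3 pair. The second turned to 0.04 with upper-quartile scaling and to 0.18 with the gene-span trend removed, and the first passed the test when counts were scaled to library totals alone (-0.37, edgeR adjusted p = 0.0351).

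VSP1 and VSP2 encode vegetative storage proteins, acid phosphatases that accumulate in jasmonate-treated and wounded leaves and are widely used as reporters of the hormone. VSP2 had 95.4 and 24.1 CPM in H3.1S28A libraries, against 19.4 and 92.8 CPM in H3.1 libraries. VSP1 had 28.2 and 3.15 CPM in H3.1S28A libraries, against 5.71 and 38.1 CPM in H3.1 libraries. For both genes the libraries of each genotype lay far apart, 1 high and 1 low, and the genotypes overlapped over nearly their whole range. The log2 fold changes were 0.07 for VSP2 (SE 0.57, edgeR adjusted p = 0.951) and -0.56 for VSP1 (SE 0.74, edgeR adjusted p = 0.662).

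Leaving out 1 library moved both genes strongly in the H3.1 pair. Without H3.1S28A replicate 1 the log2 fold changes were -2.79 for VSP1 and -1.22 for VSP2. Without H3.1S28A replicate 2 they were 0.37 for VSP1 and 0.77 for VSP2. Without H3.1 replicate 2 the values were 1.40 for VSP1 and 1.61 for VSP2, neither of them called, and without H3.1 replicate 1 they were -1.35 and -0.65. In the fits without an H3.1S28A library the SE of VSP1 was 0.20 or 0.15, although the H3.1 libraries left in them differed 6.67-fold. These fits took little account of that spread, so their calls say little about a difference between genotypes.

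In the H3.3 pair VSP2 had 56.0 and 48.3 CPM in H3.3S28A libraries, against 16.7 and 26.3 CPM in H3.3 libraries, and VSP1 had 22.0 and 20.5 CPM in H3.3S28A libraries, against 8.07 and 8.56 CPM in H3.3 libraries. Both mutant libraries were above both H3.3 libraries for each gene, although the VSP2 values of the H3.3 libraries themselves lay apart. VSP1 rose by 1.40 on the log2 scale (SE 0.13, edgeR adjusted p = 6.77e-06) and VSP2 by 1.33 (SE 0.18, edgeR adjusted p = 7.77e-05), and both stayed called in each fit that left out 1 of the 4 libraries. When all 8 libraries shared 1 estimate of the spread, neither passed, at 1.38 for VSP1 (edgeR adjusted p = 0.162) and 1.30 for VSP2 (edgeR adjusted p = 0.0944). The reads of this pair of near copies, which have 1 gene between them, may also have been divided uncertainly, but their sum rose by 1.35 (edgeR adjusted p = 1.48e-05), and VSP1 took 28.2% and 29.8% of it in H3.3S28A, against 32.5% and 24.6% in H3.3.

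CORI3, also known as a cystine lyase gene, is induced by coronatine, a bacterial mimic of the jasmonate conjugate. It had 72.2 and 28.4 CPM in H3.1S28A libraries, against 48.1 and 118 CPM in H3.1 libraries. The groups overlapped, and the log2 fold change was -0.74 (SE 0.37, edgeR adjusted p = 0.209). It was 0.05 when H3.1 replicate 2 was left out, -1.55 when H3.1S28A replicate 1 was and -1.25 when H3.1 replicate 1 was. CORI3 had 65.1 and 68.7 CPM in H3.3S28A libraries, against 113 and 122 CPM in H3.3 libraries. The groups were far apart in relation to their spread, and CORI3 fell by 0.77 on the log2 scale (SE 0.08, edgeR adjusted p = 9.04e-06), while the VSP genes, also response genes, rose in the same libraries. With all 8 libraries in 1 fit the CORI3 call was lost (-0.80, edgeR adjusted p = 0.0873).

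TAT3, a tyrosine aminotransferase gene that responds to jasmonate and wounding, was the least expressed and most variable member. Its raw counts were 9 and 18 in H3.1S28A libraries, against 26 and 306 in H3.1 libraries, which is 0.635 and 0.766 CPM in H3.1S28A libraries, against 1.19 and 13.7 CPM in H3.1 libraries. Both mutant libraries were lower, but 1 H3.1 library held most of the counts. The log2 fold change of -3.37 (SE 0.82, edgeR adjusted p = 0.0166) shrank to -0.74 without H3.1 replicate 2 and was -4.25 without H3.1 replicate 1. In H3.3S28A libraries TAT3 had 205 and 229 counts, against 38 and 7 counts in H3.3 libraries, or 10.5 and 17.8 CPM in H3.3S28A and 1.93 and 0.363 CPM in H3.3. The mutant libraries were several times above both H3.3 libraries, and TAT3 was 12.5-fold higher in H3.3S28A (log2 fold change 3.65, SE 0.47, edgeR adjusted p = 6.31e-05), from 2.89 without H3.3 replicate 2 up to 5.26 without H3.3 replicate 1.

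**Figure D3:**
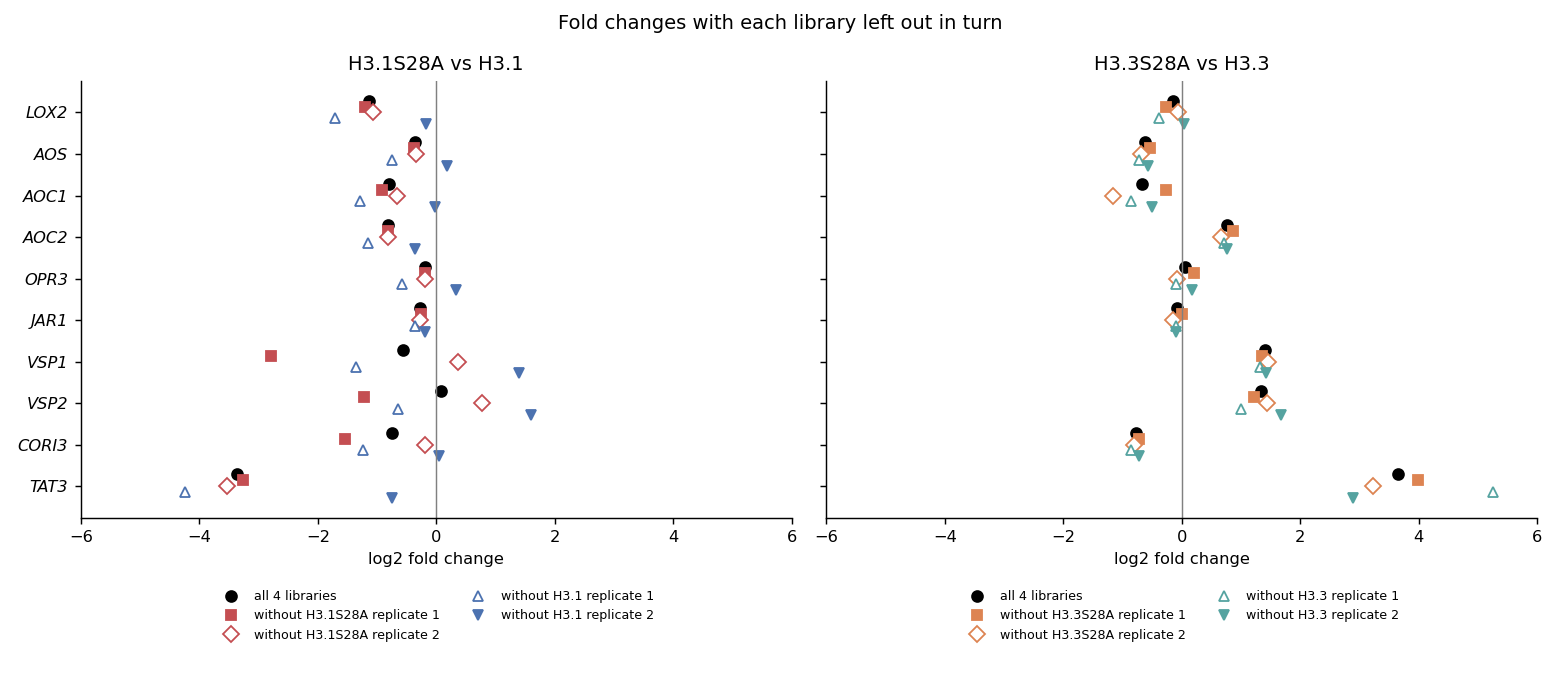
Log2 fold change of each of the 10 genes with all 4 libraries of a pair (black circles) and with each library left out in turn (other symbols, named in the legend), edgeR. In the left panel the points without H3.1 replicate 2 lie to the right of the black circles for all 10 genes and VSP1 spans -2.79 to 1.40; in the right panel the 7 called genes keep their sign in every fit shown.

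The H3.1 and H3.3 pairs were then compared directly, by testing the log2 fold change of H3.1S28A over H3.1 minus that of H3.3S28A over H3.3 on all 8 libraries. Across 20052 genes 39.0% were called, 24.4% higher and 14.6% lower, and of the 10 members 2 were called, both lower. AOC2 had a difference of -1.56 (SE 0.26, edgeR adjusted p = 0.000503) and TAT3 one of -6.99 (SE 1.26, edgeR adjusted p = 0.000806). These are the genes that were called lower in H3.1S28A and higher in H3.3S28A. The difference was -0.95 for LOX2 (edgeR adjusted p = 0.121), -1.93 for VSP1 (edgeR adjusted p = 0.19) and -1.23 for VSP2 (edgeR adjusted p = 0.284), so in this fit their effects were not shown to differ between pairs. LOX2 was called with the span trend removed (-1.46, edgeR adjusted p = 0.0262), with no count filter (-0.93, edgeR adjusted p = 0.00119) and without H3.1 replicate 1 (-1.52, edgeR adjusted p = 0.000158). VSP1 was called with no count filter (edgeR adjusted p = 0.00336), without H3.1S28A replicate 1 (-4.15, edgeR adjusted p = 0.0038) and without H3.1 replicate 1 (-2.72, edgeR adjusted p = 0.0468), and VSP2 with no count filter (edgeR adjusted p = 0.0178) and without H3.1S28A replicate 1 (-2.50). For AOS, AOC1, OPR3, JAR1 and CORI3 the difference lay between -0.22 and 0.28, with edgeR adjusted p from 0.371 to 0.955. However, JAR1 was called with the span trend removed (-0.42, edgeR adjusted p = 0.0364). OPR3 was called lower at -0.60 without H3.1 replicate 1 and stood at 0.32, not called, without H3.1 replicate 2. Leaving out H3.1 replicate 2 moved the difference of LOX2 to 0.01, of VSP1 to 0.03 and of VSP2 to 0.31, while AOC2 at -1.09 and TAT3 at -4.35 were still called and AOS was called higher at 0.83. Without H3.1 replicate 1 the difference was -1.95 for VSP2 and -0.11 for AOS, and without H3.1S28A replicate 1 it was -0.73 for CORI3.

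Levels across the 4 genotypes were set in order by their means, although H3.1 and H3.3 come from separate tables. H3.1 had the highest mean of LOX2, AOS, AOC1, AOC2, OPR3, JAR1 and VSP1, and in each of these 7 genes H3.1 replicate 2 was the highest of all 8 libraries. LOX2 averaged 378 ± 26 CPM in H3.1S28A, 833 ± 572 CPM in H3.1, 182 ± 18 CPM in H3.3S28A and 210 ± 40 CPM in H3.3 (SD, n = 2 each), so that all 4 libraries of the H3.1 table lay above all 4 of the H3.3 table. CORI3 had its highest mean in H3.3 at 118 CPM, which overlapped the range of H3.1, and VSP2 had nearly equal means of 59.7 CPM in H3.1S28A, 56.1 CPM in H3.1 and 52.2 CPM in H3.3S28A, all above 21.5 CPM in H3.3, although the lower libraries of H3.1S28A and H3.1 lay within the range of H3.3. TAT3 had its highest mean in H3.3S28A at 14.2 CPM and its lowest in H3.1S28A at 0.701 CPM, with H3.1 and H3.3 between them, and each genotype overlapped the next in that order.

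The spread between libraries of a genotype had a pattern of its own in the H3.1 table. VSP1, VSP2 and CORI3 were at least 1.5-fold higher in H3.1S28A replicate 1 than in H3.1S28A replicate 2, by 8.96-fold, 3.97-fold and 2.54-fold, where 6.04% of all genes were. The same 3 genes were also at least 1.5-fold higher in H3.1 replicate 2 than in H3.1 replicate 1, by 6.67-fold, 4.79-fold and 2.46-fold. LOX2, AOS, AOC1, AOC2 and OPR3 differed by 1.74-fold to 2.89-fold between the H3.1 libraries and by no more than 1.19-fold between the H3.1S28A libraries. Of all 18974 genes, 0.880% met both conditions, against 3 of the 10 members and 4 of 48 other jasmonate genes tested in that pair (JOX2, JOX3, JAZ9 and JR1, named after their values were seen). Both conditions were likewise picked from the members' values, so the shares of all genes are a description and no test. JOX2, a jasmonate-inactivating hydroxylase, had 12.1 and 4.39 CPM in H3.1S28A libraries, against 3.11 and 13.2 CPM in H3.1 libraries, the same high and low libraries as the VSP genes. The summed level of 14 touch and early wound response genes was 136 and 120 CPM in H3.1S28A libraries, against 91.2 and 85.1 CPM in H3.1 libraries. For the flower organ markers the sum was 66.1 and 10.6 CPM in H3.1S28A libraries, against 2.81 and 2.69 CPM in H3.1 libraries. The part of these in the difference between libraries was not tested.

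**Figure D4:**
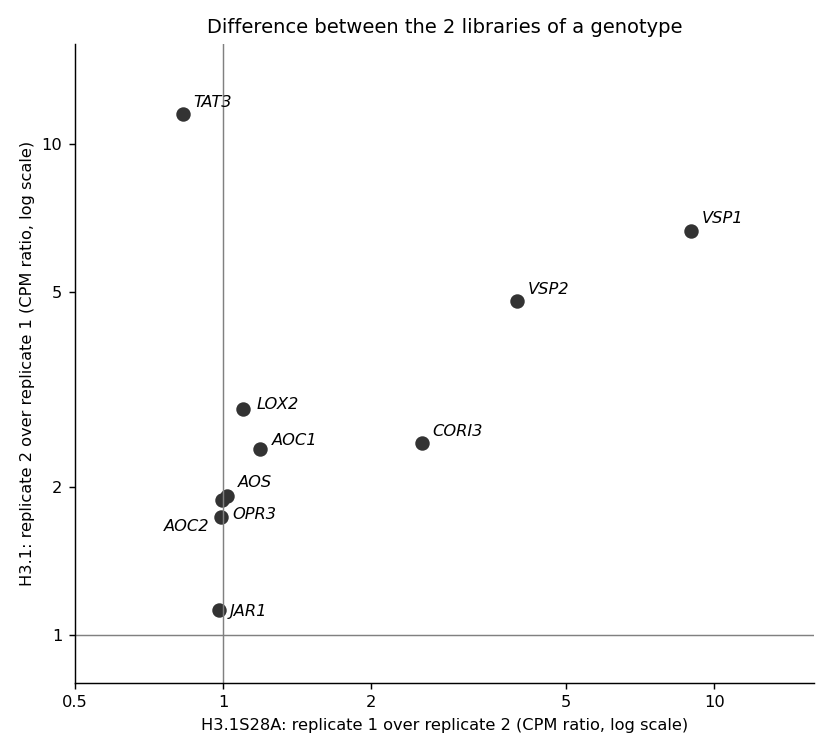
Ratio of CPM between the libraries of a genotype for the 10 genes, H3.1S28A replicate 1 over replicate 2 on the horizontal axis and H3.1 replicate 2 over replicate 1 on the vertical axis (both log scales, lines at a ratio of 1). VSP1, VSP2 and CORI3 lie to the upper right, TAT3 at the top left at 11.5, and the synthesis genes in a column near 1 on the horizontal axis.

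Genes whose pattern over the 8 libraries was most like that of a member were ranked by the root mean square difference of log2 CPM after centring each gene, over 20042 genes, as a description. Closest to VSP2 were JOX2 (0.33), JOX3 (0.41), another jasmonate hydroxylase gene, and BAM5 (0.47), a beta-amylase gene, where a typical gene had 1.03. JOX2 was also among the 3 closest to VSP1 (0.64), after AT2G22930 (0.49), with 2 to 16 counts per library, and AT3G12410 (0.53), with 1 to 12. CORI3 was most like ARGAH2 (0.21), an arginase gene, then GolS1 (0.26), a galactinol synthase gene, and ST4B (0.27). ARGAH2 had 92.2 and 59.6 CPM in H3.1S28A, against 88.7 and 177 CPM in H3.1. In the other pair it had 94.3 and 102 CPM in H3.3S28A, against 181 and 200 CPM in H3.3. LOX2 was most like MBP1 (0.31), NAC007 (0.33) and NAC086 (0.35), and AOC2 most like GLR2.7 (0.19), AT1G33600 (0.19) and SRG3 (0.19). Among the members themselves the closest were OPR3 with JAR1 (0.21) and AOS with AOC1 (0.26), and VSP1 and VSP2 differed by 0.54. JOX3 (1 to 23 counts per library), ST4B (3 to 13) and NAC086 (4 to 37) were also low, which limits the precision of their patterns.

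A further 59 genes of the pathway were listed by role, from linolenate supply to response genes. In the H3.1 pair 48 of them were tested, of which 2 were higher in H3.1S28A, 3 were lower and 43 did not pass, with a median log2 fold change of -0.12, beside 8.23% of all genes higher and 5.26% lower. None of the 5 calls held in every fit that left out 1 library, as given below. The lower genes were MED25, a mediator subunit that works with MYC2 (-0.60, edgeR adjusted p = 0.0049), LOX3, a second 13-lipoxygenase gene (-0.64, edgeR adjusted p = 0.0179), and NINJA, an adaptor of the JAZ repressors (-0.40, edgeR adjusted p = 0.0223). Those higher in H3.1S28A were NAC072, a stress-responsive transcription factor gene (0.74, edgeR adjusted p = 0.045), and PED1, a thiolase gene of beta-oxidation (0.34, edgeR adjusted p = 0.0481). LOX3 had 8.68 and 9.15 CPM in H3.1S28A, against 12.7 and 15.2 CPM in H3.1, so its H3.1 libraries differed less than those of LOX2. None of these 5 was called without H3.1 replicate 2, when edgeR adjusted p ran from 0.0656 to 0.17, and the log2 fold changes were then -0.50 for MED25, -0.50 for LOX3, -0.40 for NINJA, 0.76 for NAC072 and 0.34 for PED1. Nor were NINJA (-0.38), NAC072 (0.57) and PED1 (0.24) called without H3.1S28A replicate 1, or, at -0.41, 0.72 and 0.35, without H3.1 replicate 1. COI1 (-0.17), MYC2 (-0.56), JAZ1 (-0.01), JAZ10 (-0.46) and AOC3 (-0.13) were not called, but MYC2 was called lower when H3.1S28A replicate 1 (-0.81) or H3.1 replicate 1 (-0.92) was left out.

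Of the 59 listed genes, 49 were tested in the H3.3 pair, and 17 were higher in H3.3S28A, 14 were lower and 18 did not pass, with a median of 0.05, beside 28.8% of all genes higher and 29.7% lower. With the gene-span trend removed, 5 were lower, beside 23.3% of all genes. Fewer were called higher without H3.3 replicate 1 or without H3.3 replicate 2, as was so for all genes. The genes of perception and signalling had 1 higher and 6 lower of 11 (median -0.80), whereas the JAZ repressor genes had 5 higher and 1 lower of 10 (median 0.39) and the other response genes 4 higher and 1 lower of 6 (median 1.87). Jasmonate turnover and conjugation had 3 higher and none lower of 7, other synthesis genes 3 higher and 4 lower of 12, and linolenate supply 1 higher and 2 lower of 3. None of these counts was tested against other genes.

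CLH1, a chlorophyllase gene induced by coronatine, had 133 and 139 CPM in H3.3S28A libraries, against 37.2 and 44.3 CPM in H3.3 libraries, and rose by 1.79 on the log2 scale (edgeR adjusted p = 1.35e-07). JOX2 rose by 1.91 (edgeR adjusted p = 6.09e-05), with 8.18 and 11.9 CPM in H3.3S28A libraries, against 2.64 and 2.85 CPM in H3.3 libraries. Like VSP1, VSP2 and TAT3, both genes were higher in both mutant libraries than in either H3.3 library. Among the remaining genes of synthesis, AOC4 rose by 1.01, PED1 by 0.88 and FAD3, the desaturase gene that forms linolenate, by 0.50, while PXA1, the transporter gene for import into the peroxisome, fell by 1.00. JAZ12 rose by 0.78 and JAZ10 by 0.83. The JAZ10 call was weak (edgeR adjusted p = 0.0296) and was not made by DESeq2 (adjusted p = 0.0728), without H3.3S28A replicate 2 (edgeR adjusted p = 0.115) or without H3.3 replicate 1 (edgeR adjusted p = 0.203).

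Across the genome, log2 fold changes went with gene span, the length of a gene from start to end. Spearman's rho between log2 fold change and gene span was -0.524 over 19525 genes in the H3.3 pair and -0.218 over 18780 genes in the H3.1 pair. In the H3.3 pair TPL, a co-repressor recruited by NINJA, fell by 1.20, MED25 by 1.04, NINJA by 0.95 and COI1 by 0.41 (edgeR adjusted p = 0.00743 for COI1). With the span trend removed TPL was at -0.16, MED25 at -0.09 and COI1 at -0.07, none of them called, NINJA was still lower at -0.82, and PXA1 turned to 0.40 (edgeR adjusted p = 0.00715). COI1 was also not called without H3.3 replicate 2 (-0.38, edgeR adjusted p = 0.057). LOX3 at 0.39, AOC3 at 0.44, MYC2 at -0.07 and JAZ1 at -0.93 (edgeR adjusted p = 0.053) did not pass in this pair, although LOX3 did with the trend removed (0.96, edgeR adjusted p = 0.00316) and, narrowly, without H3.3S28A replicate 2 (0.55, edgeR adjusted p = 0.0486). JAZ1 was called lower without H3.3S28A replicate 2 (-1.42) and without H3.3 replicate 1 (-1.36), and MYC2 without H3.3 replicate 1 (-0.42). JAZ1 was also called lower with the replicate block (-0.88, edgeR adjusted p = 0.00945), the span trend removed (-1.14, edgeR adjusted p = 0.0282), library totals (edgeR adjusted p = 0.0422), organelle genes left out (-0.93, edgeR adjusted p = 0.0275) or no count filter (-0.95).

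**Figure D5:**
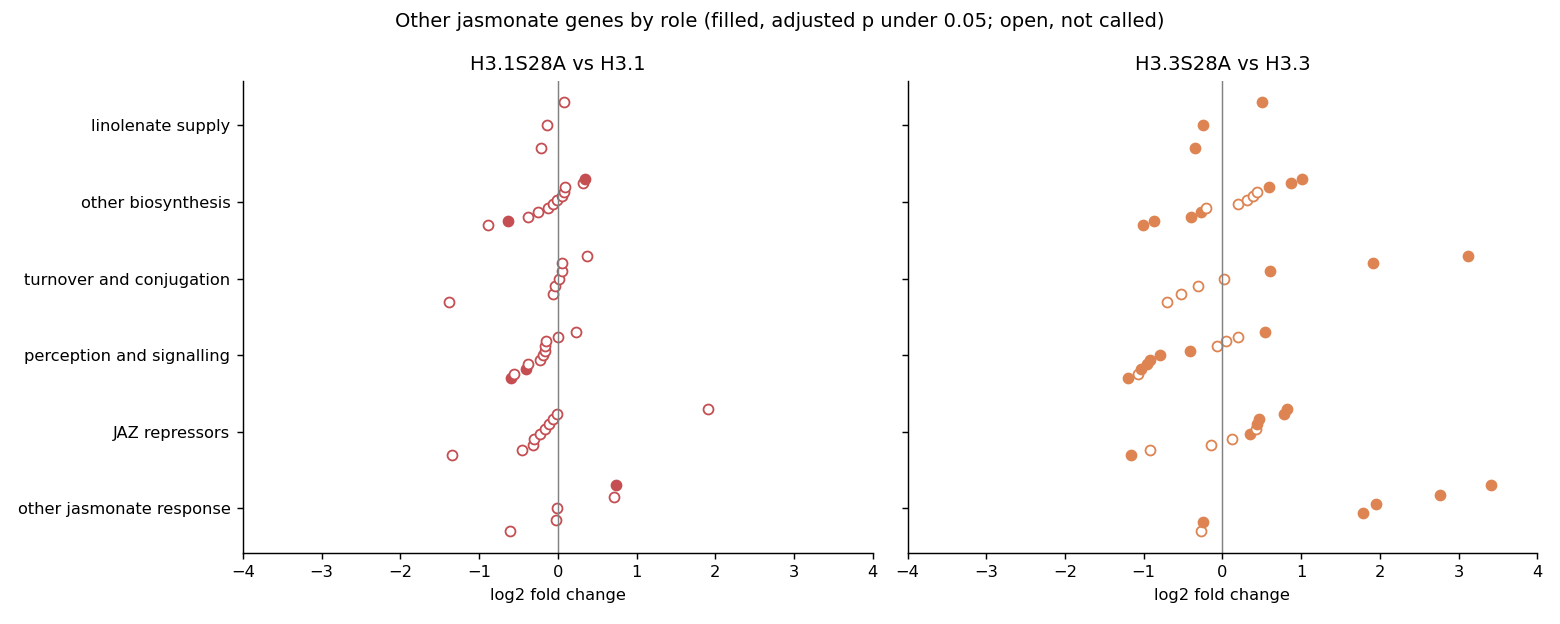
Log2 fold change of each tested gene among the 59 other jasmonate genes, by role, S28A over the unmutated form, with filled points for an adjusted p under 0.05 (edgeR). In the left panel 5 of 48 points are filled; in the right panel 31 of 49 are, with the signalling genes mostly left of 0 and the response genes mostly right of it.

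Neighbouring defence and wound programmes were counted beside the members. Among all genes the shares called were 8.23% higher and 5.26% lower in the H3.1 pair, and 28.8% higher and 29.7% lower in the H3.3 pair. Of 14 glucosinolate genes, which jasmonate can induce, none was higher and 5 were lower in H3.1S28A than in H3.1, among them the regulators MYB34 (-0.60), MYB28 (-0.58) and MYB29 (-0.57), all of which were also called without H3.1 replicate 2 (edgeR adjusted p from 0.0137 to 0.0466), while MYB34 was not without H3.1 replicate 1 (edgeR adjusted p = 0.0907). In H3.3S28A 3 of the 14 were higher, among them BCAT4 (0.74), an aminotransferase gene of aliphatic glucosinolate synthesis, and 5 were lower, among them CYP79B3 (-0.91) of the indole branch and the myrosinase gene TGG2 (-0.76). The touch and early wound genes had 2 higher and none lower of 13 tested in H3.1S28A, namely TCH4 (2.34) and TCH2 (1.07). In H3.3S28A 2 of 14 were higher and 7 lower, among them TCH4 (-1.51), TCH2 (-0.86) and CML38 (-1.86). TCH4, a xyloglucan endotransglucosylase gene induced by touch, had 42.7 and 36.7 CPM in H3.1S28A, against 8.31 and 7.38 CPM in H3.1. It had 19.7 and 19.2 CPM in H3.3S28A, against 47.1 and 68.2 CPM in H3.3. Its direction in each pair was opposite to that of TAT3 and AOC2.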

How the data were processed

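Poly(A) RNA of 8 libraries was used, and 30 chromatin immunoprecipitation samples of the series were left aside. The authors deposited whole-number read counts of each gene, unnormalized, in 2 tables, 1 for each pair of genotypes. The tools named per the submitters' processing notes are HISAT2, Subread and DESeq2, with TAIR10 as genome build. Versions, settings, strandedness and the handling of multiply mapped reads were not given in the sources used here. Counts of near copies are therefore uncertain. Columns were matched to samples by genotype and replicate in their names, the H3.1 columns being read as H3.1 followed by the replicate number. The word new stands in the H3.1S28A column names alone, without explanation.

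edgeR 4.0.16 (R 4.3.3) was run on each pair separately (TMM, filterByExpr, glmQLFit, glmQLFTest, Benjamini-Hochberg threshold 0.05 over all genes tested), and the difference between pairs was fitted on all 8 libraries. SE was taken as |log2 fold change| divided by the root of the F statistic. Printed CPM are TMM-scaled over the 8 libraries, and marker sums are scaled to library totals. The fits were also run on simulated counts with known fold changes and the same dispersion for every gene. No simulated library stood apart as H3.1 replicate 2 does, so that run says little about genes with such a spread. Alternatives were DESeq2 1.42.0, other scalings, no count filter, 1 fit of all libraries, a replicate block, removal of organelle genes or of the gene-span trend, and each library left out; sums over near copies, also with each library left out, were added after seeing the data. Replicate numbers did not pair the samples by the labels.

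Symbols, neighbours and spans came from a RefSeq table of TAIR10.1 that held 26719 of the 27416 genes and all 131 listed genes, 107 of them under the symbol used here; no coordinates are printed because the build differs. The members and lists were chosen with earlier results of these data known. Named were all members, COI1, MYC2, JAZ1, JAZ10, LOX3, AOC3, up to 10 called genes of the other jasmonate lists and up to 3 of the glucosinolate and of the touch and wound list in each pair by adjusted p, and the 3 genes most like LOX2, AOC2, VSP1, VSP2 and CORI3.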

Additional observations from a re-analysis of the deposited data

Results flagged for a closer look

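The test of the difference between pairs (edgeR, all 8 libraries) called 2 of the 10 genes, both lower. Beside them 39.0% of all genes were called, with 24.4% of all genes higher and 14.6% of all genes lower. For AOC2 the log2 fold change of H3.1S28A over H3.1 minus that of H3.3S28A over H3.3 was -1.56 (adjusted p = 0.000503), from -1.89 to -1.09 when each library was left out, and AOC1 to AOC4 summed gave -1.31 (adjusted p = 0.00099). For TAT3 it was -6.99 (adjusted p = 0.000806), from -8.63 to -4.35 when each library was left out. In the H3.1 pair taken alone, DESeq2 called neither gene. Without H3.1 replicate 2 the log2 fold changes in that pair were -0.37 for AOC2 and -0.74 for TAT3, and without H3.1 replicate 1 they were -1.16 and -4.25.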

How the results depend on the processing

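Depth limits TAT3 most, with 7 to 306 counts per library, and 2 libraries per genotype limit every result. The replicate numbers did not pair the samples (correlation of deviations -0.0167 in the H3.1 pair and 0.0246 in the H3.3 pair), and the replicate block left the members' counts at 0 higher and 3 lower in the H3.1 pair and 4 higher and 3 lower in the H3.3 pair. Scaling to library totals moved the median of all genes in the H3.1 pair to -0.11 and the calls to 953 higher and 1677 lower, against 1562 and 998; upper-quartile scaling moved it in the H3.3 pair to 0.12 and the calls to 6656 higher and 5034 lower, against 5674 and 5855. The causes of the changes below were not tested.

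Members called lower in the H3.1 pair numbered 0 by DESeq2 and 5 with no count filter, beside 3.18% and 5.62% of all genes. In the H3.3 pair 1 fit of all 8 libraries called 2 higher and 1 lower, beside 26.4% of all genes higher and 30.7% lower. For the difference between pairs, 5 were lower with no count filter and 4 with the span trend removed, beside 12.5% and 16.6% of all genes. Other jasmonate genes called higher in the H3.1 pair numbered 1 by DESeq2, 0 with upper-quartile scaling, 0 with library totals and 1 with the replicate block. The shares of all genes there were 6.57%, 7.64%, 5.02% and 9.01%. With no count filter 8 others were called lower, beside 5.62% of all genes. In the H3.3 pair 5 others were lower with the span trend removed, beside 23.3% of all genes. Fits that left out a library kept only 1 library of that genotype. The share of all genes called also moved between those fits, in both directions and in every comparison. The ranges of counts from them, given next, were not tested against all genes and do not show a change particular to jasmonate genes.

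With each library left out, the H3.1 pair had 0 to 1 members higher and 0 to 7 lower, and 0 to 8 other jasmonate genes higher and 0 to 10 lower. The H3.3 pair had 4 members higher, 2 to 4 lower, 10 to 16 others higher and 10 to 14 lower. The difference between pairs had 0 to 1 members higher, AOS at 0.83 without H3.1 replicate 2, and 2 to 5 lower.

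Signs also turned as follows, all on the log2 scale. In the H3.1 pair JAZ1 was at 0.020 by DESeq2, and VSP2 at -0.0064 with library totals, -0.029 with the span trend removed and -0.061 summed with VSP1. In the H3.3 pair upper-quartile scaling gave 0.038 for JAR1 and 0.043 for MYC2, library totals gave -0.019 for OPR3, removal of the span trend gave 0.39 for LOX2, 0.18 for JAR1, 0.40 for PXA1 and 0.24 for MYC2, and AOC1 summed with its copies was at 0.65. For the difference between pairs CORI3 was at -0.084 with upper-quartile scaling and -0.12 with the span trend removed, and AOC1 at 0.032 with the replicate block and 0.13 with the span trend removed.

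Left-out libraries turned these signs, with ranges in the H3.1 pair of -0.75 to 0.18 for AOS, -0.57 to 0.33 for OPR3, -2.79 to 1.40 for VSP1, -1.22 to 1.61 for VSP2, -1.52 to 1.57 for their sum, -1.55 to 0.047 for CORI3, -0.82 to 0.011 for JAZ10, -0.37 to 0.15 for AOC3 and -0.67 to 0.51 for JAZ1. In the H3.3 pair they were -0.38 to 0.034 for LOX2, -0.10 to 0.20 for OPR3, -0.15 to 0.0021 for JAR1 and -0.42 to 0.30 for MYC2. For the difference between pairs they were -1.52 to 0.014 for LOX2, -0.11 to 0.83 for AOS, -0.58 to 0.69 for AOC1, -0.60 to 0.32 for OPR3, -4.15 to 0.029 for VSP1, -2.50 to 0.31 for VSP2 and -0.73 to 0.85 for CORI3.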
